A study of Mus musculus with 9 samples.

Results

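Mitochondrial ribosomal protein genes encode the protein part of the mitochondrial ribosome (mitoribosome). They were taken as every gene symbol beginning with Mrpl or Mrps followed by a digit, with a length-scaled abundance (TPM) of at least 1 in at least 3 of 9 libraries. The pattern matched 76 of 23412 symbols in the table, and all 76 passed the limit, with at least 1 TPM in all 9 libraries. No matching symbol lay outside the limit, and the lowest mean level inside it, that of Mrpl1, was 10.3 TPM. The 76 genes are part of the 14336 genes tested.

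The study measured poly(A)-selected RNA of the hippocampus of WT mice at postnatal day 21, after exposure to perfluorooctane sulfonate (PFOS), a persistent fluorinated surfactant, during 1 of 2 windows of lactation. In the PFOS P1-7 group (3 samples) pups took in PFOS with the milk of dams gavaged each day from postnatal day 1 to 7, and in the PFOS P8-14 group (3 samples) from day 8 to 14. The dams received 1 mg per kg body weight per day. Control pups (3 samples) are labelled sham. The design thus asks whether the window of exposure matters for hippocampal expression. The labels name no litter, sex or dam and leave unsaid whether the 3 samples of a group came from 3 pups, so the p-values measure only how these samples vary, and that variation may be technical. PFOS in the pups was not measured in the data used here, so the dose given to the dam is the only dose known.

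All 8 markers of dentate granule neurons, all 6 of CA1 and all 6 of CA3 pyramidal neurons were above the expression limit, with sums of 168 to 252, 542 to 717 and 248.8 to 322 TPM over the libraries. Passing that limit does not set the hippocampus apart from neighbouring tissue. All 5 thalamus markers passed it too, with sums of 55.5 to 103 TPM, as did all 17 choroid plexus markers. The choroid plexus transcript Ttr lay at 11626, 39.6 and 10042 TPM in PFOS P1-7, at 9446, 9864 and 108 TPM in PFOS P8-14 and at 52.8, 35.1 and 10420 TPM in control. The 4 libraries with little choroid plexus RNA were PFOS P1-7 replicate 2, PFOS P8-14 replicate 3 and control replicates 1 and 2. Choroid plexus content was thus not balanced between exposed and control libraries. The number of symbols with at least 1 TPM ranged from 13810 to 14220. Sequencing depth is unknown, because TPM are scaled to the same total in each library.

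The mitoribosome translates the few messages that mitochondrial DNA encodes, all of them for membrane subunits of the respiratory chain and ATP synthase. Its RNAs come from mitochondrial DNA, while all of its proteins are encoded in the nucleus, made in the cytosol and imported. The large subunit forms the peptide bond and holds the exit tunnel, and the small subunit reads the message. Many of the proteins have a bacterial counterpart, and others were added in the mitochondrial line.

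Mrp symbols do not follow the subunits exactly. Of the 76 genes, 49 encode large-subunit proteins, including Mrps18a (mL66) and Mrps30 (mL65) despite their small-subunit names, and 26 encode small-subunit proteins. Mrps36 encodes a protein now counted as a component of the 2-oxoglutarate dehydrogenase complex, and it was kept because its symbol fits the pattern. By protein name, 46 carry the prefix of a bacterial counterpart (u or b) and 30 the prefix m of proteins named as mitochondrial. The 30 include Mrps18a (mL66) and Mrps18b (mS40), although both descend from a bacterial protein. The genes are scattered over the genome, with 10 on chromosome 11, 8 on chromosome 17 and 7 on chromosome 6 as the largest groups.

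Promoter sequences of 5 genes that carry the comparisons below are shown for reference, each from 250 bases before to 50 bases after the annotated start, 5′ to 3′ on the gene's own strand (RefSeq, GRCm38.p6). Capitals mark exact matches, on either strand, to 1 of 4 short motifs: GCATGCGC (core of the site of NRF1, a regulator of nuclear genes for mitochondrial proteins), CCGGAAGT (ETS family, which includes GABP, also called NRF2), AAGATGGCG (YY1) and GGGCGGG (SP family). Mrpl12 and Mrps22 are the members with the smallest p in each direction, Mrpl22 has the smallest p between the exposure windows, Mrps26 is among the most abundant members lower in PFOS P1-7, and Mrps11 starts head to head with Mrpl46.
Mrpl12, chr11:120484387-120484686, plus strand: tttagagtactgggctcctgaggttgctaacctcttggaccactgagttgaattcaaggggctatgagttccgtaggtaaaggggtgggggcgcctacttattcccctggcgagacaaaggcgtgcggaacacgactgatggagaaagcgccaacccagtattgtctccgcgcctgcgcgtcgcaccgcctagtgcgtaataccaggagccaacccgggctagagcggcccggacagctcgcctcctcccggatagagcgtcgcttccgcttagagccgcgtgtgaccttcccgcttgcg
Mrps22, chr9:98601630-98601929, minus strand: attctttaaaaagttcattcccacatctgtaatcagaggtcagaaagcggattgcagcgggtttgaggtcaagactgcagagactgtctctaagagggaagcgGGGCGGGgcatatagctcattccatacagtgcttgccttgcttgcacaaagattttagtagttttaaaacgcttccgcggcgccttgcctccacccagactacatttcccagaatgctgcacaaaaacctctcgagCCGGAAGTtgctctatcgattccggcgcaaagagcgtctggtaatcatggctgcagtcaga
Mrpl22, chr11:58171414-58171713, plus strand: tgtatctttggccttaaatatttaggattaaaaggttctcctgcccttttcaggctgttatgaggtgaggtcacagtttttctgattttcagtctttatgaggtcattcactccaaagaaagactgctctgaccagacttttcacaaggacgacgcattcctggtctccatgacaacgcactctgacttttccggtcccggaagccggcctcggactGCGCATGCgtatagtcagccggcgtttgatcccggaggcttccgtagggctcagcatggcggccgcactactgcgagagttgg
Mrps26, chr2:130563507-130563806, plus strand: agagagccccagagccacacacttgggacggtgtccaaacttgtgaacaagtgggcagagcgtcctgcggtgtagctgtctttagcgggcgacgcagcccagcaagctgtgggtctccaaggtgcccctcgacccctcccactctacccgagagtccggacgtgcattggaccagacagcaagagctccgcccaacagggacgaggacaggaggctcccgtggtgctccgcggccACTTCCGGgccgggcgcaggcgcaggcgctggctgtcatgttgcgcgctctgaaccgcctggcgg
Mrps11, chr7:78782881-78783180, plus strand: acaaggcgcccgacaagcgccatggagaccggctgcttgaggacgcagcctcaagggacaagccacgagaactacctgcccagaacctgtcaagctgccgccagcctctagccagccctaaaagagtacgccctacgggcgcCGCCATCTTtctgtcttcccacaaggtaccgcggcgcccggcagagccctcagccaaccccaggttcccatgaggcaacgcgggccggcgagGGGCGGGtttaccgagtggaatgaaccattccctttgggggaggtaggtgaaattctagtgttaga

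Counting from 1 at the start and from -1 just before it, the 5′ end of the match lay at -33 for NRF1 in Mrpl22 and at -15 for ETS in Mrps26. In Mrps22 an ETS match lay at -11 and an SP match at -147, and in Mrps11 a YY1 match lay at -108 and an SP match at -16. The Mrpl12 window held none of the 4 motifs in this exact spelling, which says nothing about the factors. Windows were found for 67 of the 76 genes, and 43 held at least 1 motif. The NRF1 core stood in 8 of 67 member windows (11.9%), against 5.28% of 10551 windows of tested genes and 2.8% of all 27025 windows. ETS stood in 11 (16.4%), against 7.59% and 4% in the same backgrounds. YY1 stood in 8 (11.9%), against 2.97% and 1.49%, and SP in 28 (41.8%), against 47.5% and 25.8%. No member window had matches to different motifs that overlapped. Of the 8 genes with an NRF1 match, 7 encode large-subunit proteins (16.3% of 43 windows) and 1, Mrps18b, a small-subunit protein (4.35% of 23 windows). These shares are descriptions of letters in a window and were not tested.

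Another feature of the members was the gene beside them. For 32 of 76 members (42.1%), the 5′ end of a protein-coding gene on the opposite strand lay within 1000 bases, head to head, against 1950 of 13046 tested genes (14.9%). Some of these partners also encode mitochondrial proteins. Mrpl46 is paired with Mrps11, Mrpl47 with Ndufb5, Mrpl36 with Ndufs6 (both partners are complex I genes) and Mrps12 with Sars2, the mitochondrial seryl-tRNA synthetase. These pairs were chosen for mention after the annotation was read.

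All members were well expressed. Mean TPM over the 9 libraries ranged 27.4-fold, with a median of 61.1 against 21.3 for all genes tested, and 71 of 76 members lay above that general median. The 5 highest were Mrpl20 (bL20m, 282 TPM), Mrps21 (bS21m, 262), Mrpl52 (mL52, 234), Mrpl33 (bL33m, 169) and Mrpl12 (bL12m, 155). The 5 lowest were Mrpl1 (uL1m, of the stalk beside the tRNA exit, 10.3 TPM), Mrpl17 (bL17m, 10.4), Mrps25 (mS25, 11.4), Mrpl19 (bL19m, 12.7) and Mrpl35 (bL35m, 14.4). Members have short transcripts, with a median of 1284 bases against 3162 for all genes tested. Mean log2 TPM was lower for longer members (r = -0.65, rho = -0.61 across 76 genes that share the same libraries, a description).

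**Figure D1:**
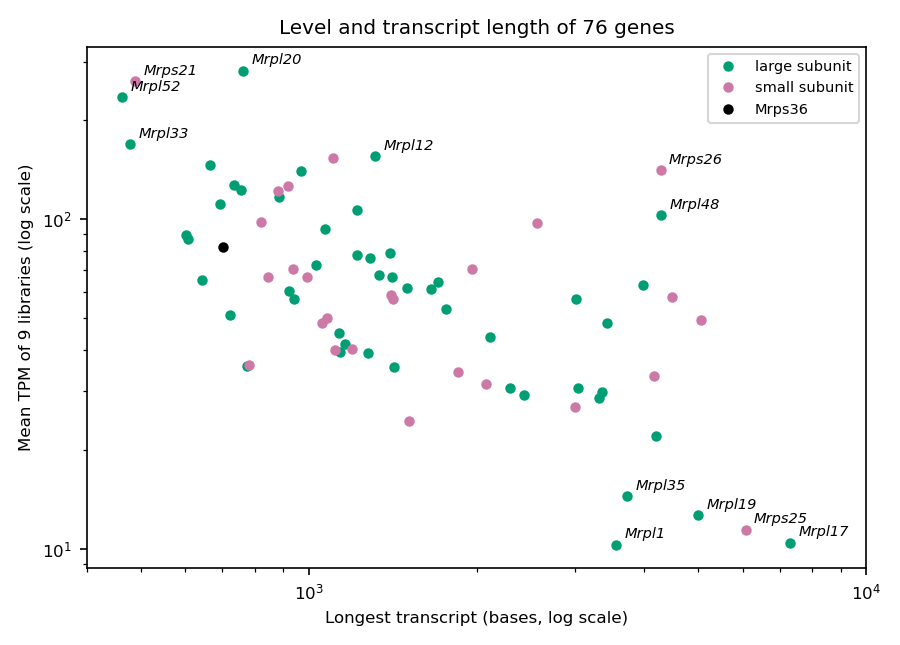
Mean TPM over 9 libraries (y axis, log scale) against the longest annotated transcript in bases (x axis, log scale) for the 76 genes, coloured by subunit. Mrpl20 at 282 TPM and Mrpl1 at 10.3 TPM mark the ends of the range, and Mrps26 and Mrpl48 stand above other long members.

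Summed over the 76 genes, the members took 5111, 5375 and 5497 TPM in PFOS P1-7, 5043, 5716 and 5397 TPM in PFOS P8-14, and 5277, 6523 and 6684 TPM in control. All exposed libraries were below control replicates 2 and 3, while control replicate 1 lay among the exposed ones. The mean deviation of the members from their 9-library mean on the log2(TPM + 1) scale was -0.08, -0.04 and -0.03 in PFOS P1-7, -0.11, 0.03 and -0.04 in PFOS P8-14, and -0.05, 0.14 and 0.19 in control. Control replicates 2 and 3 were the highest libraries for both subunits. In control replicates 1, 2 and 3 the deviations were -0.06, 0.15 and 0.19 for large-subunit genes and -0.05, 0.13 and 0.18 for small-subunit genes. In bulk tissue, fewer cells rich in these messages and less message per cell cannot be told apart.

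The same 2 control libraries stood apart in a trend that runs through all genes. Spearman's rho between a gene's deviation and its transcript length was 0.13, 0.48 and 0.18 in PFOS P1-7, 0.17, -0.195 and 0.31 in PFOS P8-14, and 0.19, -0.42 and -0.52 in control, so short transcripts were relatively high in control replicates 2 and 3. With each library's trend on length and GC content removed, the mean deviation of the members was -0.08, 0.02 and -0.06 in PFOS P1-7, -0.11, 0.0016 and 0.02 in PFOS P8-14, and -0.02, 0.12 and 0.11 in control. Control replicates 2 and 3 remained the highest, and control replicate 1 remained within the exposed range.

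**Figure D2:**
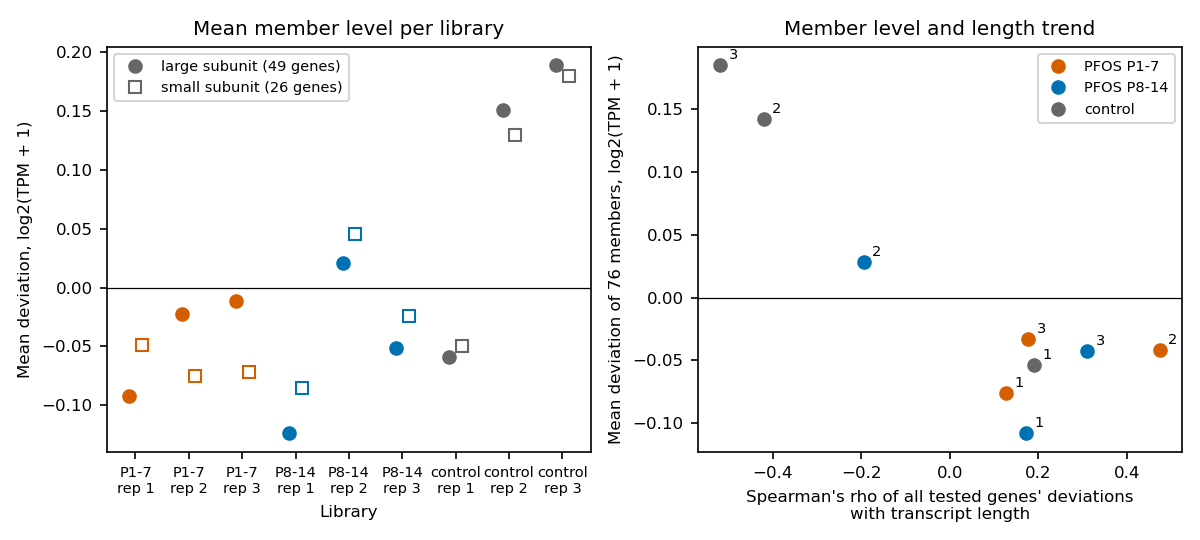
Left, the mean deviation of the large-subunit (filled circles) and small-subunit (open squares) genes in each library from their 9-library means, on the log2(TPM + 1) scale. Right, the mean deviation of all 76 members against Spearman's rho of all tested genes' deviations with transcript length, with the replicate number beside each point. Control replicates 2 and 3 lie apart at the upper left, with member deviations of 0.14 and 0.19, and control replicate 1 lies among the exposed libraries.

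Control replicate 1 was below both other controls for 56 of 76 members (73.7%), against 28.9% of all genes tested, and within the range of the 6 exposed libraries for 44 members (57.9%, against 66% of all genes). Control replicates 2 and 3 were both above all 6 exposed libraries for 41 members (53.9%, against 10.8% of all genes). All 3 controls were above all 6 exposed libraries for 14 members (18.4%, against 3.44%): Mrpl12, Mrpl27, Mrpl28, Mrpl35, Mrpl37, Mrpl49, Mrpl53, Mrps7, Mrps12, Mrps14, Mrps17, Mrps25, Mrps26 and Mrps27. All 3 controls were below all exposed libraries for 1 member, Mrps22 (1.32%, against 4.85%). These names follow from the counts and were chosen after the values were seen.

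For part of the members the first replicate was the lowest of its group in all 3 groups, not in control alone. Replicate 1 was the lowest library of its group in every group for 22 of 76 members (28.9%, against 8.51% of all genes tested), and the highest in every group for 7 (9.21%, against 13.6%). Replicate 2 was the lowest in every group for 0 members (against 2.91% of all genes) and the highest for 1 (1.32%, against 1.99%). Replicate 3 was the lowest in every group for 1 member (1.32%, against 3.86%) and the highest for 6 (7.89%, against 2.73%). Lars2, the mitochondrial leucyl-tRNA synthetase, named after its values were seen, was highest in the first replicate of each group. It had 67.3, 23.1 and 25.8 TPM in PFOS P1-7, 66.8, 27.3 and 24.5 TPM in PFOS P8-14, and 135, 28.6 and 20.1 TPM in control. Between libraries numbered 1 alone the member median difference from control was -0.02 in PFOS P1-7 and -0.04 in PFOS P8-14. Between libraries numbered 2 it was -0.23 and -0.08, and between libraries numbered 3 -0.23 and -0.20. The medians of all genes tested shifted too. For numbers 1, 2 and 3 they were -0.003, 0.11 and 0.13 in PFOS P1-7, and 0.007, 0.06 and 0.07 in PFOS P8-14. Each of these values sets 1 library against 1 library, and the labels do not say that the numbers pair them. The labels name no batch, and what lies behind the low first replicates was not tested.

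**Figure D3:**
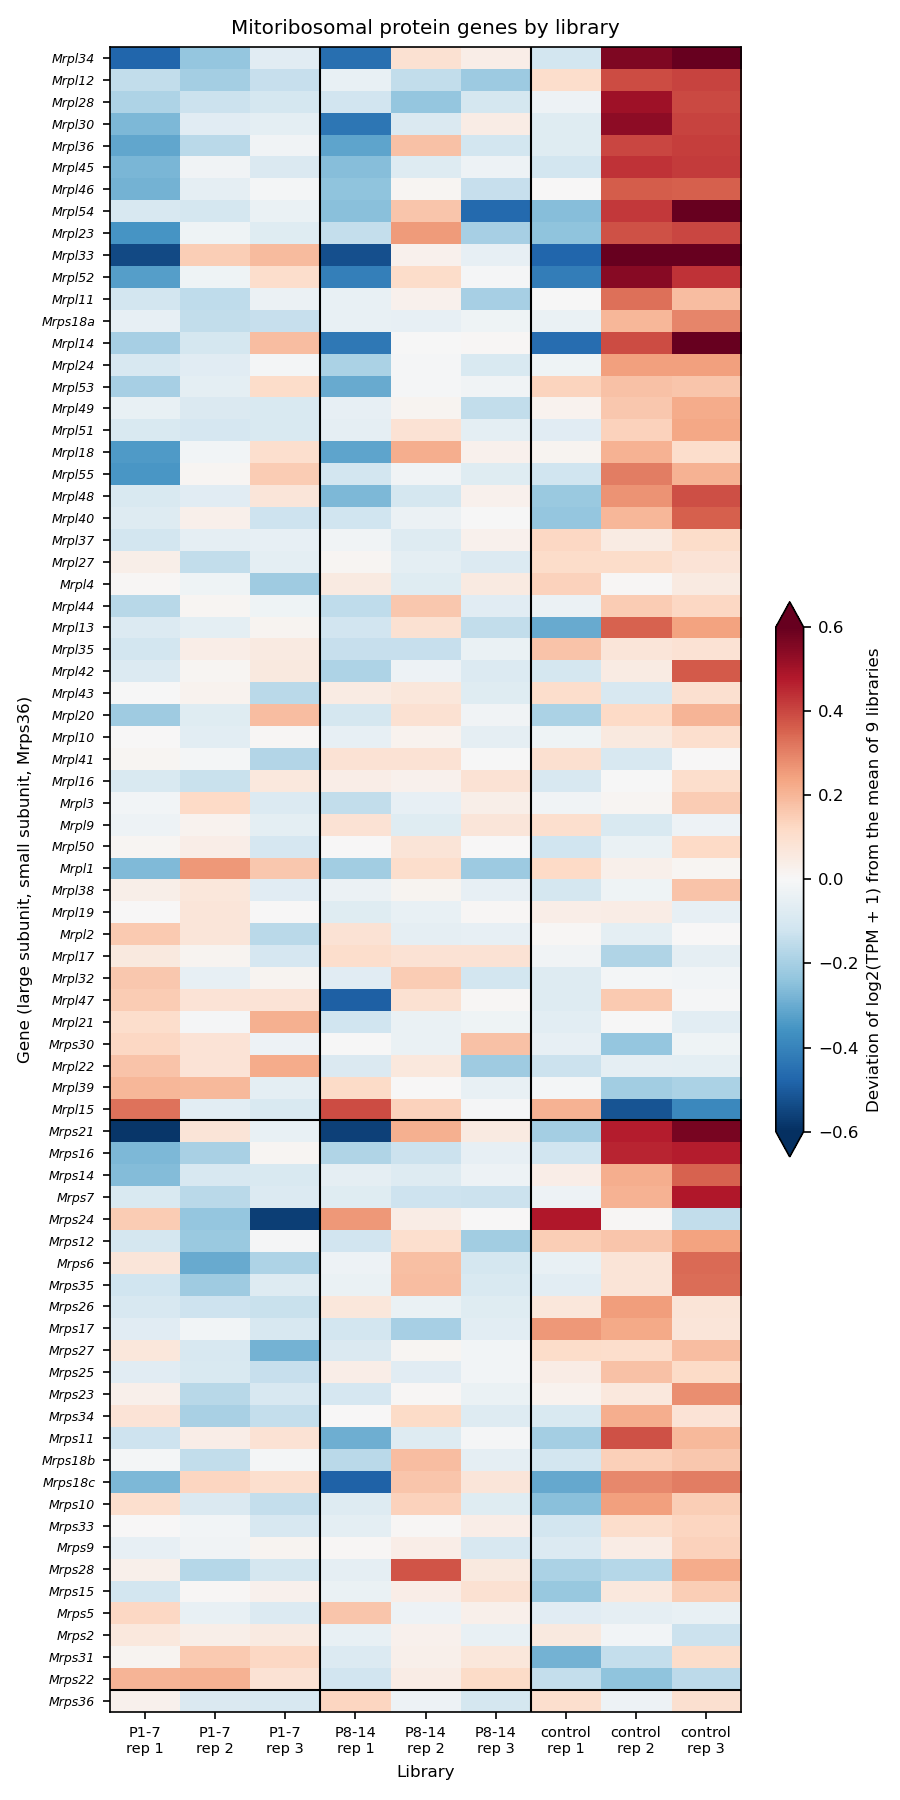
Deviation of log2(TPM + 1) from the 9-library mean for each of the 76 genes (rows, large subunit above, small subunit below, Mrps36 last, each ordered by the PFOS P1-7 minus control difference) in each library (columns). Control replicates 2 and 3 are high for most genes of both subunits, whereas Mrpl15, Mrpl39 and Mrps22 run the other way.

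In PFOS P1-7 hippocampi most mitoribosomal protein messages were slightly lower than in control. The difference of log2(TPM + 1), PFOS P1-7 minus control, was below 0 for 62 of 76 members and above 0 for 14, while 34.5% of all genes tested were below 0. The member median was -0.15 (quartiles -0.26 and -0.03, range -0.63 to 0.35), against 0.09 for all genes. No member passed the threshold of an adjusted p below 0.05 (limma, Benjamini-Hochberg), and no gene of the 14336 did (0%). The smallest adjusted p of a member was 0.181. Before adjustment, 22 members were lower and 3 higher at p below 0.05, against 5.79% lower and 12.5% higher among all genes. All 3 PFOS P1-7 libraries were below all 3 controls for 19 members and above them for 2, where 6.56% and 12.3% of all genes were so placed.

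The subunits were alike in direction. In PFOS P1-7 the difference was below 0 for 39 of 49 large-subunit genes (median -0.14) and for 22 of 26 small-subunit genes (median -0.18). Genes of proteins with a bacterial counterpart by name (prefix u or b) had a median of -0.13, and those with the prefix m -0.17. By transcript length, 24 of 25 members under 1000 bases were lower (median -0.22), as were 38 of 51 longer members (median -0.12). Across the 76 members the difference was higher for longer transcripts (r = 0.28), as it was across 13457 genes with a known length (r = 0.44), a description over genes measured in the same libraries.

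Among large-subunit genes, Mrpl12 had the smallest p. It encodes bL12m of the flexible stalk that recruits translation factors, and the human protein has also been reported to bind the mitochondrial RNA polymerase. Mrpl12 (ENSMUSG00000039640.7, chr11:120484613-120489065) had 138, 133 and 139 TPM in PFOS P1-7 pups, 148, 138 and 131 TPM in PFOS P8-14 pups, and 164, 201 and 203 TPM in control pups. The 3 controls were above all exposed libraries, with control replicate 1 nearest to them. The PFOS P1-7 difference was -0.46 (SE 0.09, unadjusted p = 0.000535, limma with Benjamini-Hochberg adjusted p = 0.181). In PFOS P8-14 it was -0.44 (SE 0.09, unadjusted p = 0.000831, limma with Benjamini-Hochberg adjusted p = 0.424).

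Mrpl28 (chr17:26123500-26126613), encoding bL28m, had 81.0, 84.2 and 85.5 TPM in PFOS P1-7 pups, 85.0, 78.3 and 85.7 TPM in PFOS P8-14 pups, and 90.2, 131 and 122 TPM in control pups. The exposed libraries spanned a narrow range below all controls, and control replicate 1 was again the lowest control. Its difference was -0.43 in PFOS P1-7 (SE 0.12, limma adjusted p = 0.198) and -0.44 in PFOS P8-14 (SE 0.12, limma adjusted p = 0.426). Mrpl10, whose product uL10m anchors the Mrpl12 protein to the ribosome, stayed closer together, at 63.5 ± 1.78 TPM in PFOS P1-7, 63.1 ± 1.97 TPM in PFOS P8-14 and 66.5 ± 3.00 TPM in control (SD, n = 3 each). Its differences were -0.06 in PFOS P1-7 (95% interval -0.22 to 0.09) and -0.07 in PFOS P8-14 (-0.23 to 0.08). The most negative PFOS P1-7 difference of any member was that of Mrpl34 (bL34m), named after its value was seen, at -0.63 (SE 0.21, limma adjusted p = 0.219), with 60.2, 71.4 and 80.1 TPM in PFOS P1-7 pups, 61.2, 89.7 and 86.7 TPM in PFOS P8-14 pups, and 77.9, 125 and 133 TPM in control pups. PFOS P1-7 replicate 1 and PFOS P8-14 replicate 1 were the lowest libraries, and control replicate 1 lay within the exposed range.

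Small-subunit genes led the list in PFOS P1-7 together with these. Mrps26 (chr2:130563742-130568695), encoding mS26, had 131.4, 128.7 and 128.0 TPM in PFOS P1-7 pups, 147.1, 136.7 and 133.6 TPM in PFOS P8-14 pups, and 147.4, 167.5 and 148.1 TPM in control pups. All controls were above all exposed libraries, by less than 1 TPM over PFOS P8-14 replicate 1. Its PFOS P1-7 difference was -0.25 (SE 0.07, unadjusted p = 0.00729, limma with Benjamini-Hochberg adjusted p = 0.204). Mrps14 (chr1:160195215-160202170), encoding uS14m, had 22.1, 24.9 and 24.9 TPM in PFOS P1-7 pups, 25.6, 25.2 and 26.1 TPM in PFOS P8-14 pups, and 27.4, 31.1 and 34.3 TPM in control pups. PFOS P1-7 replicate 1 was the lowest library and all controls were the highest. Its PFOS P1-7 difference was -0.35 (SE 0.10, limma adjusted p = 0.188).

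Mrps12 (chr7:28739641-28741820) encodes uS12m, the counterpart of the bacterial decoding-centre protein in which streptomycin resistance arises. It had 112, 103 and 120.3 TPM in PFOS P1-7 pups, 112, 129.7 and 105 TPM in PFOS P8-14 pups, and 134, 136 and 143 TPM in control pups. The exposed libraries overlapped each other widely and stayed below all controls. The PFOS P1-7 difference was -0.30 (SE 0.09, limma adjusted p = 0.21), and in PFOS P8-14 it was -0.26 (SE 0.09, limma adjusted p = 0.426).

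**Figure D4:**
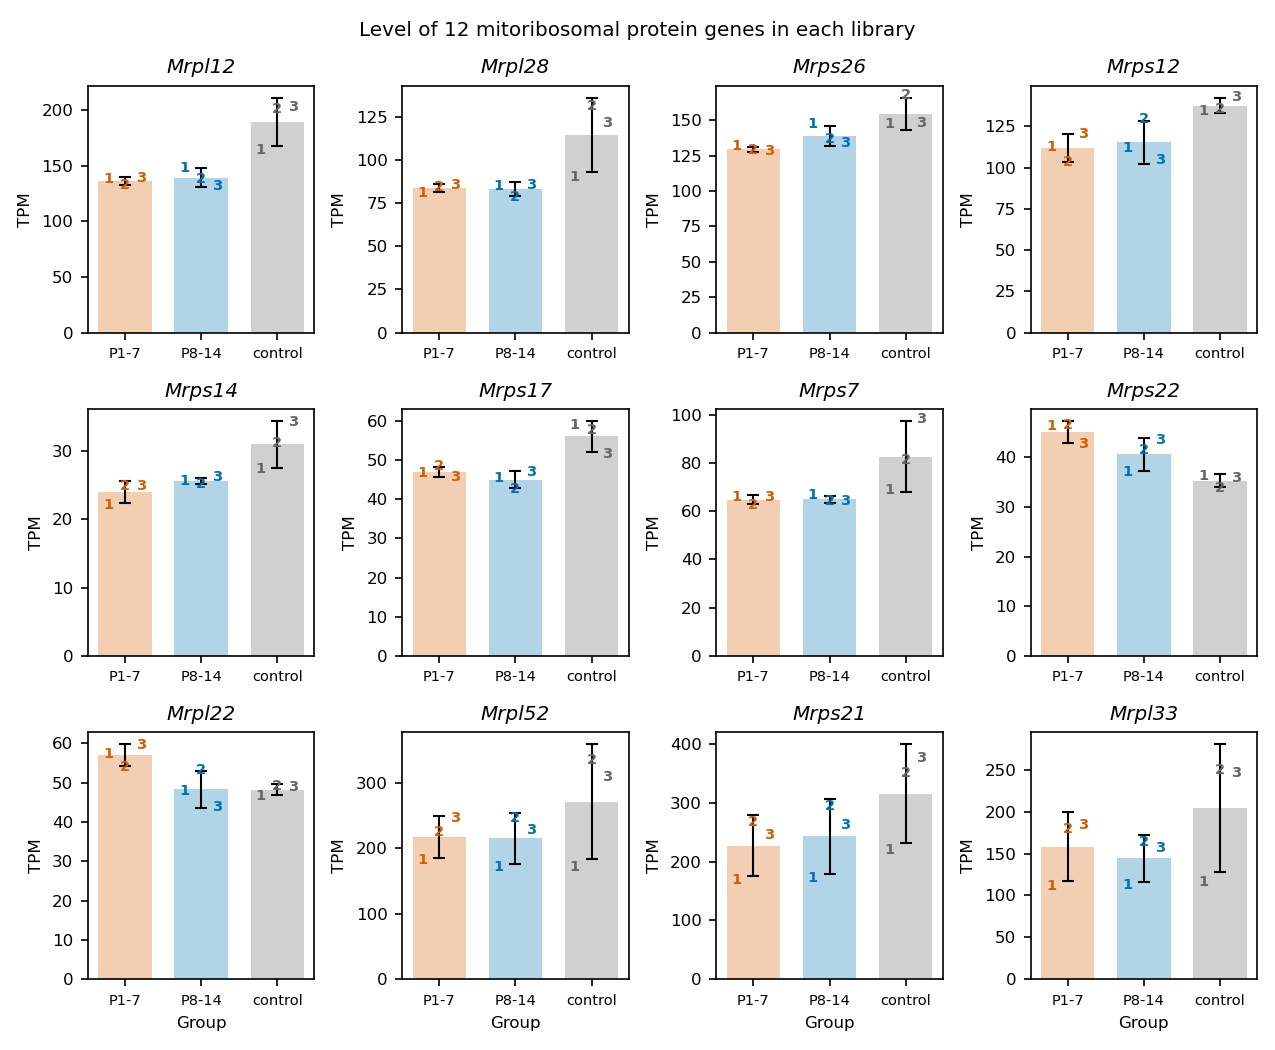
TPM of 12 mitoribosomal protein genes in each library, with bars for the mean and error bars for the SD of 3 libraries, and digits placed at each replicate's value. For Mrpl12, Mrpl28, Mrps26, Mrps12, Mrps14, Mrps17 and Mrps7 all controls stand above all exposed libraries, for Mrps22 all below, and Mrpl52, Mrps21 and Mrpl33 show the wide control spread.

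A few members ran the other way in PFOS P1-7. Mrps22 (ENSMUSG00000032459.9, chr9:98588730-98601660) encodes mS22, a protein without a bacterial counterpart whose human gene is mutated in a mitochondrial disease. Mrps22 had 46.4, 46.5 and 42.6 TPM in PFOS P1-7 pups, 37.0, 41.4 and 43.6 TPM in PFOS P8-14 pups, and 36.3, 33.8 and 35.9 TPM in control pups. All exposed libraries were above all controls, and PFOS P8-14 replicate 1 was close to control replicate 1. The PFOS P1-7 difference was 0.35 (SE 0.08, unadjusted p = 0.00224, limma with Benjamini-Hochberg adjusted p = 0.181), and in PFOS P8-14 it was 0.20 (SE 0.08, unadjusted p = 0.0431, limma with Benjamini-Hochberg adjusted p = 0.446).

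Mrpl22 encodes uL22m, which lines the exit tunnel, and Mrpl39 encodes mL39, a protein related to a tRNA synthetase. Their PFOS P1-7 differences were 0.24 (SE 0.09, limma adjusted p = 0.22) and 0.25 (SE 0.10, limma adjusted p = 0.245). Mrpl39 had 35.3, 35.2 and 29.4 TPM in PFOS P1-7 pups, 33.2, 30.7 and 29.7 TPM in PFOS P8-14 pups, and 30.4, 26.4 and 26.8 TPM in control pups. Its 2 highest libraries were PFOS P1-7 ones, while the third PFOS P1-7 library lay below control replicate 1. Next by p were Mrps31 (mS31, 0.20, limma adjusted p = 0.338) and Mrpl21 (bL21m, 0.15, limma adjusted p = 0.344).

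In PFOS P8-14 hippocampi the picture was alike in direction. The comparison shares its 3 controls with the one above, so likeness between them is no separate evidence. The difference of log2(TPM + 1), PFOS P8-14 minus control, was below 0 for 59 of 76 members and above 0 for 17, against 37.9% of all genes below 0. The member median was -0.13 (quartiles -0.25 and -0.02, range -0.47 to 0.40), against 0.06 for all genes. No member and no gene passed the adjusted threshold (limma, Benjamini-Hochberg, 0% called). Of the members, 15 were lower and 1 was higher at p below 0.05 before adjustment, against 4.65% and 6.33% of all genes. All 3 PFOS P8-14 libraries were below all controls for 15 members and above them for 3, where 5.99% and 7.31% of all genes were so placed. The difference was below 0 for 38 of 49 large-subunit genes (median -0.15) and 20 of 26 small-subunit genes (median -0.11).

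Besides Mrpl12 and Mrpl28, the members with the smallest p that were lower in PFOS P8-14 were Mrps17, Mrpl46 and Mrps7. Mrps17 (chr5:129715497-129722556), encoding uS17m, had 46.7, 48.4 and 45.8 TPM in PFOS P1-7 pups, 45.3, 42.6 and 46.9 TPM in PFOS P8-14 pups, and 59.0, 57.6 and 51.6 TPM in control pups. All exposed libraries were below all controls. Its PFOS P8-14 difference was -0.31 (SE 0.08, unadjusted p = 0.00281, limma with Benjamini-Hochberg adjusted p = 0.424). Mrpl46 (chr7:78775236-78783531), encoding mL46, had 36.4, 42.9 and 44.2 TPM in PFOS P1-7 pups, 37.6, 45.0 and 40.4 TPM in PFOS P8-14 pups, and 44.6, 57.7 and 57.4 TPM in control pups. All PFOS P1-7 libraries were below all controls, and the highest PFOS P8-14 library was just above control replicate 1. Its PFOS P8-14 difference was -0.36 (SE 0.12, limma adjusted p = 0.426). Mrps11 (uS11m), the head-to-head neighbour of Mrpl46 shown above, was at 48.0 ± 3.65 TPM in PFOS P1-7, 43.9 ± 4.56 TPM in PFOS P8-14 and 53.0 ± 10.7 TPM in control, with a PFOS P8-14 difference of -0.25 (95% interval -0.57 to 0.07). Mrps7 (chr11:115603925-115608036), encoding uS7m of the small-subunit head, had 65.8, 62.6 and 66.0 TPM in PFOS P1-7 pups, 66.6, 64.2 and 64.0 TPM in PFOS P8-14 pups, and 68.5, 81.0 and 98.0 TPM in control pups. Its controls were above all exposed libraries and spread widely, and the PFOS P8-14 difference was -0.33 (SE 0.11, limma adjusted p = 0.426).

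On the higher side in PFOS P8-14, Mrps22 was followed by Mrpl15, Mrpl17, Mrpl39 and Mrps30. Mrpl15 (uL15m) had 27.3, 20.7 and 20.2 TPM in PFOS P1-7 pups, 28.7, 23.9 and 21.5 TPM in PFOS P8-14 pups, and 25.1, 14.8 and 16.3 TPM in control pups. Its controls spread widely, with replicate 1 high, and the difference was 0.40 (SE 0.20, limma adjusted p = 0.461). Mrpl17 stood at 10.3 ± 0.63 TPM in PFOS P1-7, 11.2 ± 0.10 TPM in PFOS P8-14 and 9.76 ± 0.62 TPM in control, with a difference of 0.18 (limma adjusted p = 0.481). Of the 30 differences named for their p, this was the 1 that took the other sign under any setting tried, at -0.05 once the trend on length and GC was removed and control replicate 1 left out. Mrpl39 differed by 0.16 and Mrps30 by 0.15 (limma adjusted p = 0.525 and 0.531).

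**Figure D5:**
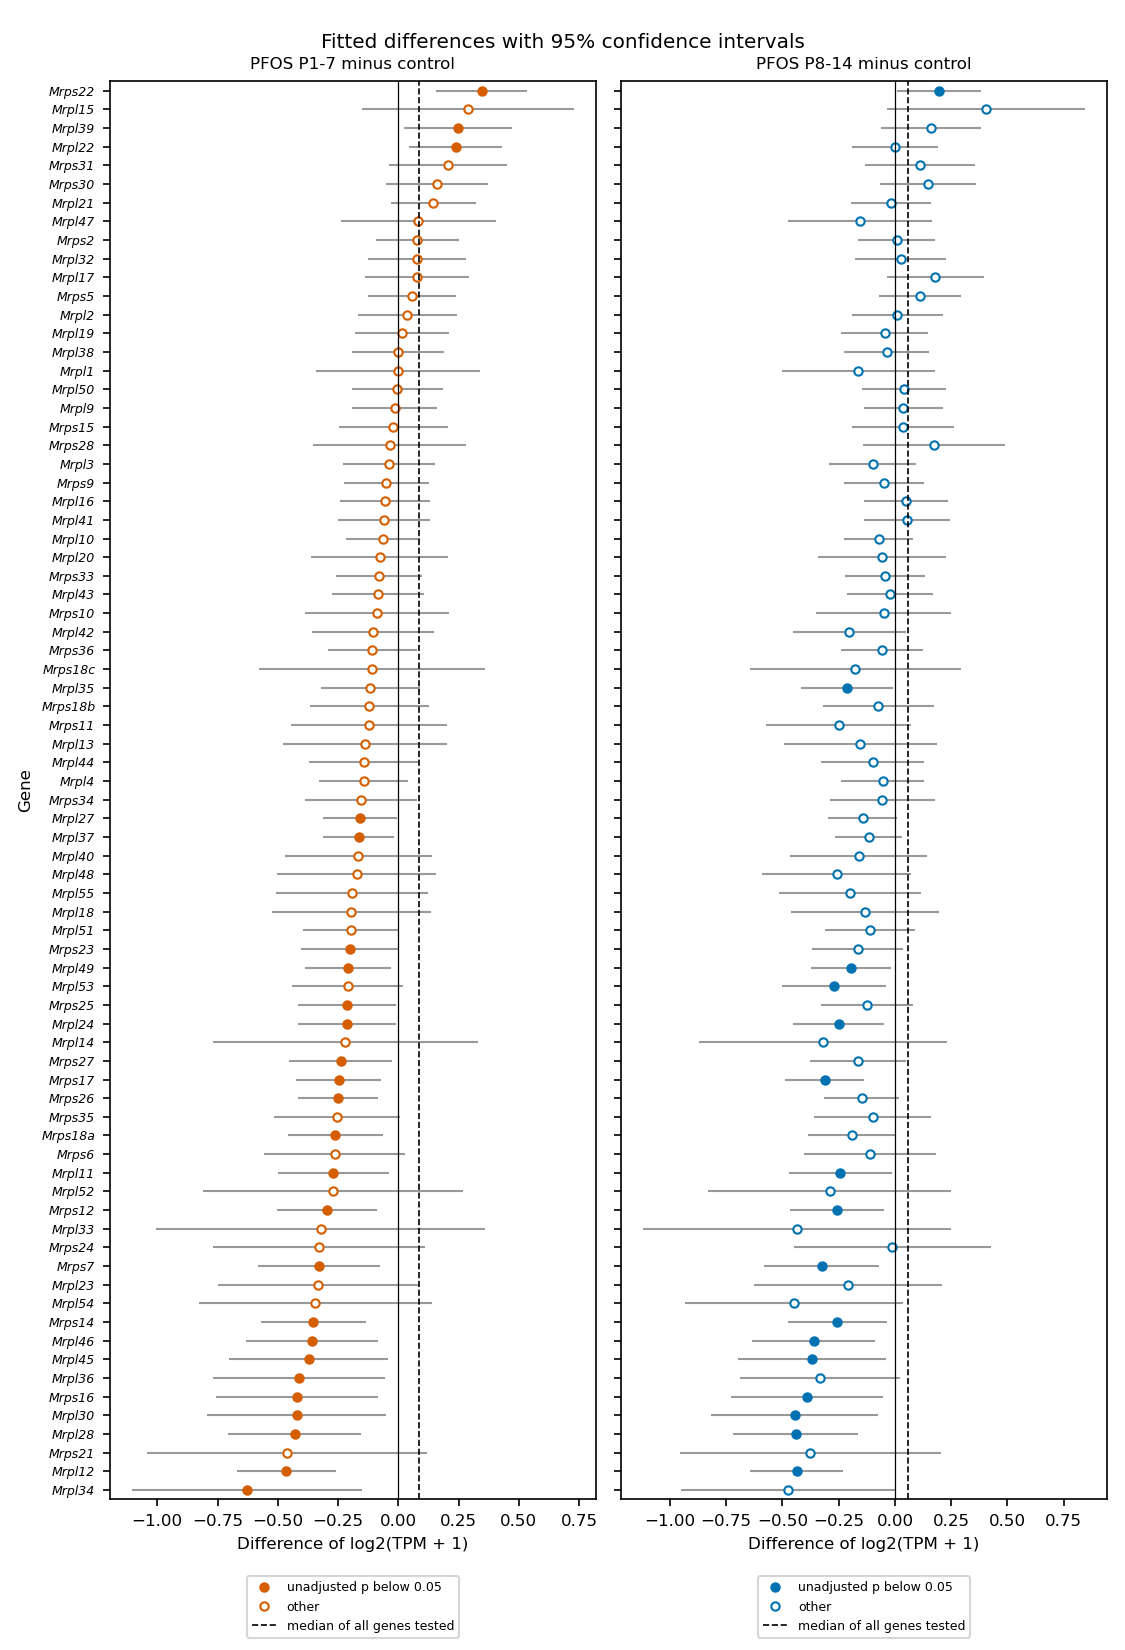
Fitted difference of log2(TPM + 1) and its 95% confidence interval for each of the 76 members, PFOS P1-7 minus control (left) and PFOS P8-14 minus control (right), in the order of the left panel. Filled points have an unadjusted p below 0.05 (25 members on the left, 16 on the right), none passed the adjusted threshold, and the dashed line is the median of all genes tested (0.09 and 0.06).

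Set directly against each other, the 2 exposure windows gave no member difference past the adjusted threshold. The difference PFOS P8-14 minus PFOS P1-7 was above 0 for 44 of 76 members and below 0 for 32, with a member median of 0.02 against -0.03 for all genes, of which 38.8% were above 0. No gene passed the adjusted threshold (limma, Benjamini-Hochberg, 0% called, smallest adjusted p 1). Before adjustment, 1 member was lower and 0 were higher at p below 0.05, against 0.635% and 0.467% of all genes. PFOS P8-14 libraries were all above PFOS P1-7 for 5 members and all below for 3, against 1.9% and 4.15% of all genes. The median was -0.01 over large-subunit genes (23 of 49 above 0) and 0.04 over small-subunit genes (20 of 26 above 0). The median 95% interval of a member, without adjustment, reached 0.23 to either side. Differences smaller than that could not be told from 0 for a typical member, and the adjusted threshold asks for larger ones.

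The member lower at that level was Mrpl22 (chr11:58171661-58179565), with 47.9, 53.3 and 43.8 TPM in PFOS P8-14 pups and 57.4, 54.1 and 59.6 TPM in PFOS P1-7 pups, and 46.6, 49.1 and 48.9 TPM in control pups. All PFOS P8-14 libraries were below all PFOS P1-7 libraries and overlapped with control. The difference was -0.24 (95% interval -0.43 to -0.05, unadjusted p = 0.0204, limma adjusted p = 1). Next in this direction were Mrpl21 (-0.17), Mrps22 (-0.15), Mrpl47 (uL29m, -0.24) and Mrpl35 (-0.10), all with a limma adjusted p of 1. On the higher side the smallest p belonged, in this order, to Mrps24 (uS3m, 0.32), Mrps28 (bS1m, 0.21), Mrps26 (0.10), Mrpl41 (mL41, 0.11) and Mrps35 (mS35, 0.15), also with a limma adjusted p of 1. Mrps24 overlaps Urgcp on the same strand, so its reads may be shared between the 2 genes.

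The 3 descendants of a single bacterial protein, Mrps18a, Mrps18b and Mrps18c, sit in different places in the mitoribosome, the first in the large subunit and the others in the small one. Mrps18a stood at 108 ± 4.18 TPM in PFOS P1-7, 113 ± 1.03 TPM in PFOS P8-14 and 129.5 ± 15.0 TPM in control (SD, n = 3 each), Mrps18b at 47.9 ± 2.66 TPM in PFOS P1-7, 49.7 ± 6.37 TPM in PFOS P8-14 and 52.3 ± 5.41 TPM in control, and Mrps18c at 96.5 ± 14.4 TPM in PFOS P1-7, 93.1 ± 21.4 TPM in PFOS P8-14 and 105 ± 23.7 TPM in control. Their PFOS P1-7 differences were -0.26, -0.12 and -0.11, with 95% intervals of -0.46 to -0.06, -0.37 to 0.13 and -0.58 to 0.36. The PFOS P8-14 differences were -0.19, -0.07 and -0.18. No adjusted p of the 3 genes was under 0.217 (limma, Benjamini-Hochberg).

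Replicate spread differed greatly among members. The residual SD on the log2 scale had a median of 0.12, against 0.16 over all genes tested. It was largest for Mrpl33 (0.47), Mrps21 (0.39) and Mrpl14 (0.37) and smallest for Mrpl37 (0.042), Mrpl19 (0.044) and Mrpl10 (0.051). Mrpl33 had 111, 179 and 185 TPM in PFOS P1-7 pups, 112, 164 and 156 TPM in PFOS P8-14 pups, and 116, 250.1 and 247 TPM in control pups. Mrps21 had 169, 267 and 246 TPM in PFOS P1-7 pups, 172, 294 and 263 TPM in PFOS P8-14 pups, and 220.1, 352 and 377 TPM in control pups. In these 2 genes, both with transcripts under 1000 bases (478 and 488), the first replicate of each group was the lowest of its group and control replicates 2 and 3 the highest libraries.

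Mrpl14 (uL14m, at the face between the subunits) likewise ran to 46.2, 83.9 and 97.5 TPM in control. At the steady end, Mrpl37 (mL37) had 57.3, 59.6 and 59.8 TPM in PFOS P1-7 pups, 61.1, 58.7 and 63.1 TPM in PFOS P8-14 pups, and 67.5, 64.2 and 66.8 TPM in control pups. Here the controls were above all exposed libraries although the gap was small, and the differences were -0.16 in PFOS P1-7 and -0.12 in PFOS P8-14 (limma adjusted p = 0.242 and 0.495). Mrpl19 was at 12.9 ± 0.38 TPM in PFOS P1-7, 12.3 ± 0.37 TPM in PFOS P8-14 and 12.8 ± 0.50 TPM in control. Mrpl20, the most abundant member, was at 276 ± 39.1 TPM in PFOS P1-7, 279 ± 19.5 TPM in PFOS P8-14 and 292 ± 40.6 TPM in control, and Mrpl52 at 217 ± 32.7 TPM in PFOS P1-7, 215 ± 38.9 TPM in PFOS P8-14 and 271 ± 87.6 TPM in control, both with groups that overlapped. Of the scarce members, Mrps25 was at 10.6 ± 0.29 TPM in PFOS P1-7, 11.3 ± 0.47 TPM in PFOS P8-14 and 12.4 ± 0.62 TPM in control, Mrpl35 at 14.4 ± 0.96 TPM in PFOS P1-7, 13.3 ± 0.57 TPM in PFOS P8-14 and 15.6 ± 0.64 TPM in control and Mrpl1 at 10.8 ± 2.15 TPM in PFOS P1-7, 9.46 ± 1.38 TPM in PFOS P8-14 and 10.6 ± 0.47 TPM in control.

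Members moved together across libraries to a moderate degree. The median Pearson correlation between 2 members over the 9 libraries was 0.32 (2850 pairs, 67.3% of them positive), against 0.052 among 2000 tested genes. After group means were subtracted the member median was 0.23, and no matching value for other genes was computed. Pairs share libraries and the length trend given above, and these values are descriptions. Readings of Mrpl23, Mrpl48 and Mrps36 are less certain, since named pseudogenes of each exist and the way shared reads were assigned can move them. Mrps34, Mrps6 and Mrpl53 overlap another gene on their strand.

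Of 7 tested genes for mitoribosomal proteins and partners with other symbols, 6 had a difference below 0 in PFOS P1-7 (median -0.14) and 7 in PFOS P8-14 (median -0.18), against the 34.5% and 37.9% of all genes given above. In each comparison 2 were lower at p below 0.05 before adjustment, against 5.79% of all genes in PFOS P1-7 and 4.65% in PFOS P8-14. In PFOS P1-7 Dap3 and Oxa1l lay near 0, at 0.01 and -0.01. Chchd1 (mS37) stood at 105 ± 15.6 TPM in PFOS P1-7, 114 ± 6.72 TPM in PFOS P8-14 and 154 ± 30.4 TPM in control (SD, n = 3 each), with differences of -0.54 and -0.41. Gadd45gip1 (mL64) stood at 33.1 ± 1.43 TPM in PFOS P1-7, 34.3 ± 2.23 TPM in PFOS P8-14 and 39.3 ± 2.73 TPM in control, with differences of -0.24 and -0.19. Ict1 differed by -0.28 in PFOS P1-7 and -0.23 in PFOS P8-14, and Ptcd3 by -0.06 and -0.18. No gene of this or the following groups passed the adjusted threshold (limma, Benjamini-Hochberg).

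The factors that work with the mitoribosome had medians near 0. The median over 12 mitochondrial translation factors was 0.02 in PFOS P1-7 and -0.01 in PFOS P8-14, with 3 higher and 1 lower at p below 0.05 before adjustment in PFOS P1-7 and 0 in PFOS P8-14. Among all genes 12.5% were higher and 5.79% lower at that level in PFOS P1-7, and 6.33% and 4.65% in PFOS P8-14. Mtif2, the initiation factor, stood at 25.9 ± 1.93 TPM in PFOS P1-7, 24.8 ± 0.67 TPM in PFOS P8-14 and 21.6 ± 1.11 TPM in control, Gfm1, an elongation factor, at 44.5 ± 5.29 TPM in PFOS P1-7, 39.8 ± 4.77 TPM in PFOS P8-14 and 34.3 ± 6.98 TPM in control, and Tufm, the tRNA-delivering elongation factor, at 86.3 ± 4.41 TPM in PFOS P1-7, 88.7 ± 3.61 TPM in PFOS P8-14 and 99.5 ± 6.50 TPM in control. Their PFOS P1-7 differences were 0.25, 0.38 and -0.20. In PFOS P8-14 they were 0.19, 0.22 and -0.16, and Mtrf1 differed by 0.27. Transcripts of this group are longer, with a median of 2606 bases, than those of the members.

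The 21 genes of mitochondrial tRNA charging, which are aminoacyl-tRNA synthetases and the amidotransferase subunits Gatc and Qrsl1, had medians of -0.01 in PFOS P1-7 (3 higher and 0 lower at p below 0.05 before adjustment) and -0.03 in PFOS P8-14 (1 higher and 2 lower). In both directions together that was 14.3% of the list in each comparison, against 18.3% and 11% of all genes. Wars2 differed by 0.47 and 0.51 in PFOS P1-7 and PFOS P8-14. Iars2 and Gars differed by 0.27 and 0.15 in PFOS P1-7. Tars2 and Hars2 differed by -0.31 and -0.37 in PFOS P8-14. The 24 genes of mitoribosome assembly and rRNA modification had medians of 0.03 in PFOS P1-7 (0 higher and 4 lower) and -0.02 in PFOS P8-14 (0 higher and 2 lower). Those lower were 16.7% and 8.33% of the list, against 5.79% and 4.65% of all genes, and 12.5% and 6.33% of all genes were higher. Gtpbp5, an assembly GTPase, differed by -0.34 and -0.30, Ngrn by -0.25 and -0.24, and Wbscr16 by -0.37 and -0.31, each in PFOS P1-7 and PFOS P8-14.

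A list of 15 genes of mitochondrial transcription and RNA handling, which also holds the mitochondrial DNA replication genes Polg, Polg2 and Ssbp1, had medians of 0.06 in PFOS P1-7 (2 higher and 0 lower at p below 0.05 before adjustment) and 0.05 in PFOS P8-14 (1 higher and 0 lower). Those higher were 13.3% and 6.67% of the list, near the 12.5% and 6.33% of all genes. Lrpprc, which stabilises mitochondrial messages, stood at 40.6 ± 1.67 TPM in PFOS P1-7, 39.5 ± 0.76 TPM in PFOS P8-14 and 31.9 ± 6.46 TPM in control. Grsf1, of the mitochondrial RNA granules, stood at 85.8 ± 3.22 TPM in PFOS P1-7, 80.7 ± 3.45 TPM in PFOS P8-14 and 72.8 ± 4.29 TPM in control. Trmt10c, a subunit of mitochondrial RNase P, differed by 0.21 in PFOS P1-7, and Tfam, which packages and transcribes mitochondrial DNA, by -0.14 in PFOS P8-14.

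The 12 regulators of mitochondrial biogenesis had medians of 0.22 in PFOS P1-7 (3 higher and 1 lower at p below 0.05 before adjustment) and 0.12 in PFOS P8-14 (0 higher and 1 lower). Shares of all genes at that level were 12.5% higher and 5.79% lower in PFOS P1-7, and 6.33% and 4.65% in PFOS P8-14. Esrra, a nuclear receptor that drives mitochondrial genes, stood at 56.9 ± 3.13 TPM in PFOS P1-7, 55.7 ± 2.96 TPM in PFOS P8-14 and 67.3 ± 1.87 TPM in control, with differences of -0.24 and -0.27. Its coactivator Ppargc1a stood at 19.1 ± 1.70 TPM in PFOS P1-7, 17.1 ± 1.09 TPM in PFOS P8-14 and 15.5 ± 2.31 TPM in control, with differences of 0.29 and 0.15. Esrrg, the related receptor, differed by 0.52 and 0.41, and Myc by 0.36 in PFOS P8-14. Regulators as a group have long transcripts, with a median of 4709 bases.

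Other groups with short transcripts were also mostly below control. Of 82 cytosolic ribosomal protein genes (median transcript 914 bases), 81 were below 0 in PFOS P1-7 (median -0.29, with 33 lower and 0 higher at p below 0.05 before adjustment) and 78 in PFOS P8-14 (median -0.25, with 30 lower and 0 higher). Those lower were 40.2% and 36.6% of the list, against 5.79% and 4.65% of all genes, and 12.5% and 6.33% of all genes were higher. Rplp1 differed by -0.67 and -0.64 and Rpl10a by -0.37 and -0.36 in PFOS P1-7 and PFOS P8-14, and Rpl41 by -0.55 in PFOS P1-7. Of 36 nuclear complex I subunit genes (median 945 bases), 29 were below 0 in PFOS P1-7 (median -0.17) and 27 in PFOS P8-14 (median -0.10). Ndufb5, the head-to-head neighbour of Mrpl47, differed by -0.45 and -0.39, while Mrpl47 itself differed by 0.08 and -0.15. Ndufa8 and Ndufa11 differed by -0.37 and -0.29 in PFOS P1-7, and Ndufc1 and Ndufa11 by -0.52 and -0.26 in PFOS P8-14. No test of a difference between these groups and the members was made.

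Some other measures differed between the groups too, and others did not. Summed endothelial markers (6 genes) ran from 238 to 286 TPM in PFOS P1-7, 265 to 279 TPM in PFOS P8-14 and 291 to 332 TPM in control, without overlap between exposed and control, although 2 of the 6 genes had a difference below 0 in each exposed group. Summed general neuronal markers (6 genes) ran from 4590 to 4954 TPM in PFOS P1-7, 4426 to 5098 TPM in PFOS P8-14 and 4048 to 4554 TPM in control, with all 6 genes above 0 in both differences from control. Summed blood markers (3 genes tested) ran from 1358 to 2629 TPM in PFOS P1-7, 1167 to 1526 TPM in PFOS P8-14 and 1847 to 3092 TPM in control, so PFOS P8-14 and control did not overlap. All 6 oligodendrocyte markers were above 0 in both differences from control, with sums of 12319 to 17602 TPM in PFOS P1-7, 13698 to 14728 TPM in PFOS P8-14 and 9059 to 14838 TPM in control. Of 8 dentate granule markers, 7 were above 0 in PFOS P1-7 (3 higher and 1 lower at p below 0.05 before adjustment) and 6 in PFOS P8-14 (1 higher and 0 lower). Of all genes tested, 65.5% were above 0 in PFOS P1-7 and 62.1% in PFOS P8-14. At p below 0.05 before adjustment, 12.5% of them were higher and 5.79% lower in PFOS P1-7, and 6.33% and 4.65% in PFOS P8-14. In both differences 4 of 6 astrocyte, 4 of 6 microglia, 3 of 6 CA1 and 5 of 6 CA3 markers were above 0. The summed levels of these 4 lists overlapped between exposed and control libraries. Choroid plexus markers (17 genes) spanned 184 to 13003 TPM in PFOS P1-7, 268 to 11122 TPM in PFOS P8-14 and 158 to 11047 TPM in control. All 17 were above 0 in both differences from control, with medians of 1.55 in PFOS P1-7 and 1.39 in PFOS P8-14. Their spread was wide, and 0 of them stood at p below 0.05 before adjustment. With a choroid plexus score as a covariate the member medians were -0.16 in PFOS P1-7 and -0.13 in PFOS P8-14. The part of endothelial, neuronal, blood and oligodendrocyte content in the member differences was not tested.

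Whether members passed the adjusted threshold depended on control replicate 1. Without it, 24 members passed the adjusted threshold in PFOS P1-7 and 20 in PFOS P8-14 (limma, Benjamini-Hochberg), 23 and 19 of them lower, among 2658 and 1741 of all genes, and the member medians were -0.22 and -0.18. Array weights, which count libraries that stand apart for less, passed 19 and 12 members, among 2914 and 1053 of all genes. With the first replicates of all 3 groups left out, 22 members passed in PFOS P1-7 (20 lower) and 10 in PFOS P8-14 (9 lower), among 2713 and 668 of all genes, and the medians were -0.19 and -0.16. Without control replicate 2 or 3, none passed, and the medians lay between -0.12 and -0.08. Members at an unadjusted p below 0.05 then numbered 11 and 9 in PFOS P1-7 and 5 and 4 in PFOS P8-14. Without control replicate 2, 9 were lower and 2 higher in PFOS P1-7 (3.51% and 5.91% of all genes), and 5 and 0 in PFOS P8-14 (2.52% and 2.46%). Without control replicate 3, 6 were lower and 3 higher in PFOS P1-7 (3.69% and 6.4%), and 3 and 1 in PFOS P8-14 (2.87% and 3.04%). With the length and GC trend of each library removed, the member medians were -0.08 in PFOS P1-7 and -0.10 in PFOS P8-14. The medians of all genes were then -0.00719 and -0.0105, against 0.0875 and 0.0583 without the removal. Members thus lay closer to all genes than before in both comparisons. At p below 0.05 before adjustment, 19 members were then lower and 3 higher in PFOS P1-7, against 7.5% and 5.36% of all genes. In PFOS P8-14 15 were lower and 2 higher, against 6.53% and 4.15%. With that trend removed and control replicate 1 left out, 15 members passed in PFOS P1-7, 13 of them lower, and 11 passed in PFOS P8-14, all 11 lower.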

How the data were processed

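The authors deposited 1 table of TPM per gene symbol with 1 column per library. Each deposited TPM column sums to between 999999 and 1000001. Per the submitters' processing notes, the build was mm10 and the tools were RSEM 1.3.3, STAR 2.5.3a, fastp 0.21.0 and bcl2fastq. Per the labels' protocols a stranded mRNA kit was used. Which annotation was counted is not given in the sources used here, and TPM keep no depth, so no counting interval was computed.

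The 14336 genes that reached 1 TPM in 3 or more libraries were tested with limma 3.58.1 in R 4.3.3 on log2(TPM + 1), a scale that understates changes of low genes. The fit had a mean per group, no covariate and a mean-variance trend. Tests of the 3 comparisons were two-sided, with p-values adjusted by Benjamini-Hochberg across the 14336 genes and a threshold of 0.05. The procedure was tried on simulated data with independent noise for each gene. These held no trend shared across a library, so the trial does not cover the library trends given above. Gene positions and longest transcript lengths came from GENCODE (GRCm38) and promoters from RefSeq (GRCm38.p6), with motif matches exact on both strands.

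Members and gene lists were chosen with earlier results of these data known. Members were named by the 5 smallest p in each direction of each comparison, the 5 highest and 5 lowest levels, the 3 largest and 3 smallest residual SD, and 6 for their role (Mrpl10, Mrpl12, Mrps12, Mrps18a, Mrps18b, Mrps18c). Of each pathway list the 3 with the smallest p against control were named, except 1 gene that is not reported here. Alternatives were other pseudocounts, filters and scalings, array weights, covariates, the replicate number as a block, removal of length and GC trends, and leaving out each library. Trend removal with control replicate 1 left out, and the omission of all first replicates, were added after the data were seen. Figures were drawn with matplotlib 3.10.9.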

Additional observations from a re-analysis of the deposited data

How the results depend on the processing

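The member medians stayed below 0 in both comparisons with control under every setting run. Leaving out 1 library at a time gave -0.218 to -0.104 in PFOS P1-7, -0.18 to -0.0799 in PFOS P8-14 and -0.0251 to 0.0434 between the windows. Members at an unadjusted p below 0.05 then numbered 9 to 41, 4 to 34 and 0 to 3, members passing the adjusted threshold 0 to 24, 0 to 20 and 0 to 0, and all genes passing it 0 to 2658, 0 to 1741 and 0 to 0. The high ends came without control replicate 1 for both comparisons with control. Adding the length and GC trend removal to the omission of control replicate 1 gave 703 and 581 genes and 15 and 11 members passing. Members at an unadjusted p below 0.05 then numbered 30, 32 and, between the windows, 4. Of these, 25 were lower and 5 higher in PFOS P1-7 (12.3% and 11.4% of all genes), and 27 and 5 in PFOS P8-14 (12.6% and 11.1%). Between the windows 2 were lower and 2 higher (0.981% and 0.884%). Under that setting Mrpl17 in PFOS P8-14 took the other sign (-0.0457). Array weights, which give less weight to libraries that stand apart, called 2914 genes and 19 members in PFOS P1-7 and 1053 genes and 12 members in PFOS P8-14. Members at an unadjusted p below 0.05 numbered 41, 33 and 3 in the 3 comparisons. Of these, 37 were lower and 4 higher in PFOS P1-7 (10% and 27.3% of all genes), and 30 and 3 in PFOS P8-14 (9.31% and 20.3%). Between the windows 2 were lower and 1 higher (2.66% and 1.14%). With the first replicates of all groups left out, an alternative chosen after the data were seen, 2713 and 668 genes and 22 and 10 members passed. Members at an unadjusted p below 0.05 then numbered 41, 33 and 3. Of these, 38 were lower and 3 higher in PFOS P1-7 (9.56% and 26.9% of all genes), and 31 and 2 in PFOS P8-14 (9.01% and 18.8%). Between the windows 1 was lower and 2 higher (3.07% and 1.37%). Median-of-ratios scaling moved the PFOS P1-7 member median to -0.232. The median of all genes moved down with it, from 0.0875 to 0.0111. Between the windows, 2 members were lower at an unadjusted p below 0.05 with no filter (0.964% of all genes) and 2 with the trend removed (0.609%). None was higher under these settings, and 0 stood at that level with median-of-ratios or quantile scaling. The cause of these shifts was not tested.

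The labels do not say that a replicate number marks anything shared, and not every same-numbered pair had deviations that correlated above 0.1, so the numbers were not taken to pair the samples. For 28.9% of members the first replicate was nevertheless the lowest of its group in all 3 groups, against 8.51% of all genes tested. Same-numbered libraries of PFOS P1-7 and control had deviations correlated at -0.031, 0.227 and 0.505, those of PFOS P8-14 and control at 0.174, 0.139 and -0.467, and those of PFOS P8-14 and PFOS P1-7 at 0.53, -0.355 and -0.29. With the replicate number as a block, 31 members in PFOS P1-7, 24 in PFOS P8-14 and 2 between the windows had an unadjusted p below 0.05, and 0 passed the adjusted threshold (limma). Of these, 26 were lower and 5 higher in PFOS P1-7 (7.1% and 14.6% of all genes), 23 lower and 1 higher in PFOS P8-14 (6.1% and 8.68%), and 1 lower and 1 higher between the windows (1% and 0.865%). Precision is limited by 3 libraries per group and an unknown depth.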
